A study of Mus musculus with 2 samples.

Results

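Molecular chaperones and their partners were examined as a set of 41 mouse genes: heat shock proteins, the chaperonin CCT, prefoldin and the main folding proteins of the endoplasmic reticulum and mitochondria. Members were chosen by symbol, and every array probe whose RefSeq accession names a listed gene was taken. All 41 genes were found, with 58 probes, among 20618 named genes on the array. Of these members 40 were measured in both populations, and the small heat shock protein gene Hspb1 was measured only in SoNar-high cells.

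The study took leukaemic B-lineage cells (B-ALL, acute lymphoblastic leukaemia) from mouse bone marrow and sorted them by SoNar, a fluorescent sensor of the cytosolic NADH to NAD+ ratio, read as the ratio of fluorescence after violet and blue excitation. SoNar-high cells and SoNar-low cells, both from C57BL mice labelled as 8 weeks old, each gave 1 total RNA sample on 1 single-colour (Cy3) Agilent array. The sample titles call the same samples N-myc-high and N-myc-low, a grouping that the labels do not explain. The labels give neither the oncogene or transplant that produced the leukaemia nor whether animals were pooled. With 1 array per group there is no spread between samples, so no difference was tested; precision is limited by the number of arrays. Each array was scanned in its own session, so scan session and population cannot be told apart.

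Chaperones hold unfolded proteins and let them fold. HSP70 proteins bind short exposed stretches with the help of HSP40 (DnaJ) partners, HSP90 acts later on near-folded clients such as kinases, and prefoldin hands actin and tubulin to the CCT ring. The endoplasmic reticulum and mitochondria have chaperones of their own. Cells raise the cytosolic set through heat shock factor, which binds repeats of the letters GAA and TTC, and the endoplasmic reticulum set through the unfolded protein response, which acts on a longer promoter element.

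Promoter sequence was not used to choose the members. Both searched elements are, however, those already known for the cytosolic and endoplasmic reticulum sets, as described above. Matches in those genes therefore describe them and are not an independent result. RefSeq promoters (GRCm38.p6, 250 bases before to 50 after the start site) were found for 35 of the 41 members, and not for Hspa8, Hsp90aa1, Hsp90ab1, Cct4, Pfdn1 or Hspa9. The ER stress element (CCAAT, then 9 bases of any kind, then CCACG), searched on both strands, was in 4 promoters, those of Hspa5, Hsp90b1, Calr and Canx, all of the endoplasmic reticulum class. It was in 0 of the other 30 members outside that class, in 11.4% of the members and in 0.137% of the 27025 genes in the table. The stretches below are printed to show that element, in capitals, on the strand of each gene. Hsp90b1 holds it at 2 places, once on each strand, and in Calr it reads on the opposite strand.
Hspa5, chr2:34772005-34772063, plus strand: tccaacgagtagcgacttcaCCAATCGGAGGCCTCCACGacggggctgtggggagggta
Hsp90b1, chr10:86705513-86705676, minus strand: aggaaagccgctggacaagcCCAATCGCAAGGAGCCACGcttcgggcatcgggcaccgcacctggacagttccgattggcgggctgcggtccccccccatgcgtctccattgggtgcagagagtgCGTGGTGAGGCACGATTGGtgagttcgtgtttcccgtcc
Calr, chr8:84847055-84847113, minus strand: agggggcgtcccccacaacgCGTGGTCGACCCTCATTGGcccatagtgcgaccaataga
Canx, chr11:50325780-50325838, minus strand: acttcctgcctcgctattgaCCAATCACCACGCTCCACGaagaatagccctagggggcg

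The short heat shock element (GAA and TTC in either order with 2 bases of any kind between them, on both strands) was in 11 of 35 member promoters (31.4%), against 17.0% of all genes in the table. The 11 were Hsph1, Cdc37, Fkbp4, Dnaja1, Dnajb6, Hspb1, Cct2, Cct5, Cct6a, Hspd1 and Hspe1, so 2 of 3 mitochondrial promoters held it, against 9 of 27 cytosolic ones. It was in 0 of 5 endoplasmic reticulum promoters and 0 of 4 prefoldin promoters, too few to set against the share of all genes. The longer form, with 3 such units in a row in alternating order, contains the short form and was in 4 members (11.4%), Hsph1, Dnajb6, Hspd1 and Hspe1, against 0.662% of all genes. Hspd1 and Hspe1, which encode the mitochondrial chaperonin and its lid, lie head to head with 215 bases between their facing start sites, and share 1 run of overlapping elements. Another listed Hspd1 start lies beyond the Hspe1 start. Member promoters were also richer in G and C, with a median of 62.7% against 52.8% over the table. The following stretches show heat shock element matches in capitals for that shared promoter, for the gene measured on the SoNar-high array alone and for the CCT subunit with the highest difference.
Hspe1 and Hspd1, chr1:55088039-55088096, plus strand: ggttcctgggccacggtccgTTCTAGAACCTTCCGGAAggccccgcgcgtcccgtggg
Hspb1, chr5:135887782-135887849, plus strand: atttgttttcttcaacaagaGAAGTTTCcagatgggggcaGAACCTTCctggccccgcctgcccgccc
Cct5, chr15:31601853-31601900, minus strand: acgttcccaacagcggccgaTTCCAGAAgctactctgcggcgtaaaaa

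**Figure D1:**
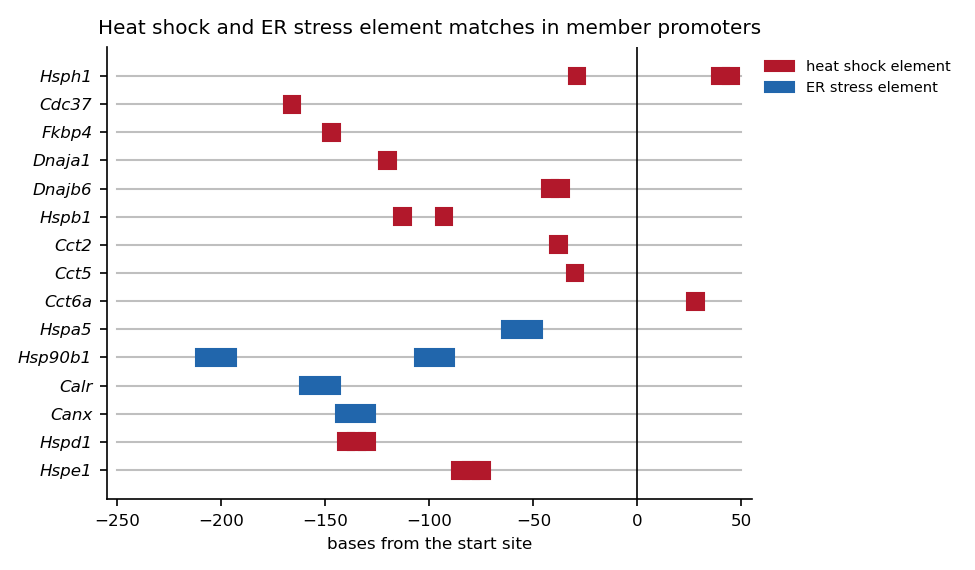
Matches to the short heat shock element (red) and the ER stress element (blue) in 15 member promoters, by distance in bases from the start site (vertical line). Blue boxes occur in the 4 endoplasmic reticulum genes, and the boxes of Hspd1 and Hspe1 are the same run seen from each gene; where a gene has several listed starts, a single start with a match is drawn.

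Signals are given in the intensity units of the scanner files, after the software's background subtraction and before scaling between arrays. Levels are log2 of that signal minus the 75th percentile of the array, which was 525 for SoNar-high and 475 for SoNar-low. A difference is the level in SoNar-high minus that in SoNar-low, and 1 on this scale is 2-fold. The median difference of all 10517 genes measured on both arrays was -0.17, and it depends on the scaling, so members are set against it. Error is known only from within the arrays. The scanner software's error for a difference from 1 probe was 0.20, the SD between repeated spots of a probe had a median of 0.15 over 193 probes, and the SD between different probes of 1 gene had a median of 0.32 over 2394 genes and 0.31 over the 8 members with several usable probes.

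The chaperone genes as a group lay close to all measured genes. Their median difference was -0.23 over 40 members, against -0.17 for all genes, with 14 members above the median of all genes and 26 below. A 2-fold higher difference was reached by 1 member, Stip1, against 4.87% of all measured genes, and 0 members were 2-fold lower, against 1.68%. With median scaling, which took the median of all genes to -0.78, 0 members were 2-fold higher, against 1.32% of all genes, and 13 were 2-fold lower, against 31.4%. The members spanned -0.83 to 1.11, and 9 of the 40 had a difference above 0, against 36.8% of all measured genes. Differences also moved with signal strength on these arrays: the median of all genes was 0.09 in the lowest 25% of levels and -0.34 in the highest 25%, where 32 of the 40 members lie. Within that highest bin 20 members lay above and 12 below the median of all genes there. Centred on genes of like level, a step added after the data were seen, the median of the members was 0.07, with 23 above and 17 below. The side on which the group as a whole falls thus changed with the genes it was set against.

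**Figure D2:**
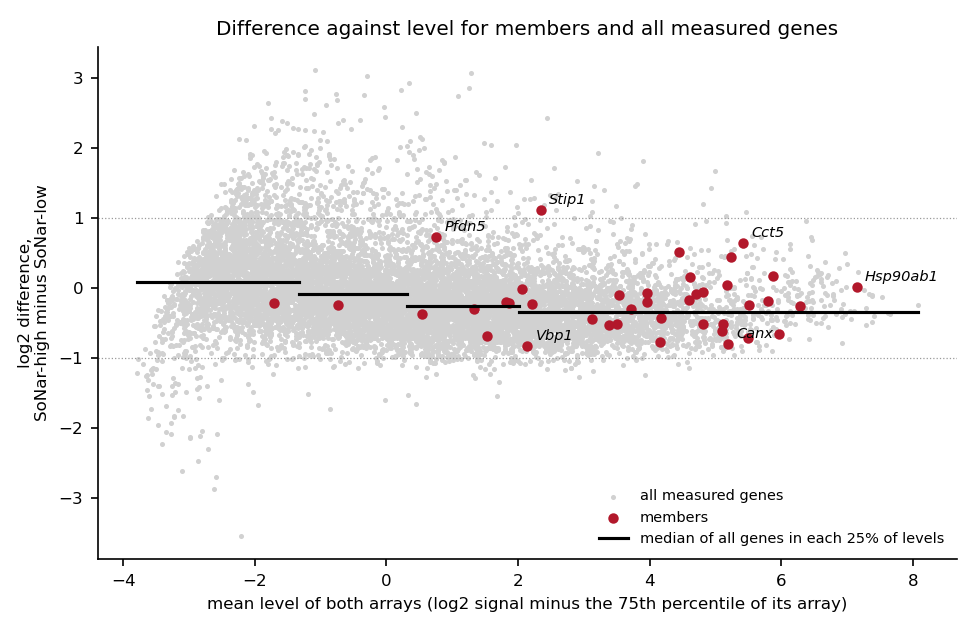
Log2 difference (SoNar-high minus SoNar-low) against the mean level of both arrays for all 10517 measured genes (grey) and 40 members (red), with the median of all genes in each 25% of levels as black lines. The lines step down to -0.34 at the right, where 32 members lie, and Stip1 is the member above 1.

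HSP70 proteins and their large relatives lay on both sides of the median of all genes. Hspa8, the constitutive cytosolic HSP70, had 12749, 22213 and 43500 signal units from its 3 probes in SoNar-high cells, and 10279, 11373 and 30990 in SoNar-low cells. In the main setting each probe was higher in SoNar-high cells, and the mean difference was 0.44 with an SD of 0.34 between probes. With median scaling the mean difference of Hspa8 was -0.17, still above the median of all genes, which that setting took to -0.78. Hspa4, a nucleotide exchange factor of the HSP110 family, had 26157 in SoNar-high and 37146 in SoNar-low cells from its bright probe, a difference of -0.65. Its other 2 probes were not well above background in SoNar-low cells. Hspa14, which works at the ribosome, was at -0.51 with 5003 in SoNar-high and 6463 in SoNar-low cells. Hsph1, another HSP110 protein, was at -0.30 from 2 probes that differed by 0.04, and Hspa4l, a further relative, at -0.22. The class median of -0.30 was below the median of all genes in all 11 other processing settings, of which 2, median scaling and the 75th percentile of probes detected on both, shift every gene alike and so cannot move a gene across that median, and in the main setting 4 of its 5 genes were on that side, all but Hspa8. Of these 4, Hspa14 was below in all 11 settings, while Hspa4, Hspa4l and Hsph1 were above in 2, 1 and 3 of them.

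The HSP40 partners and Bag1 lay below the median of all genes in the main setting, at -0.20 to -0.68, although Dnaja1, Dnaja2 and Dnajb6 moved above it in 2, 5 and 5 of 11 other processing settings. Dnajb1, the stress-inducible HSP40, had 1196 in SoNar-high and 1731 in SoNar-low cells, which is the lowest difference of the class at -0.68. Dnajc7, which binds both HSP70 and HSP90, was at -0.52, from 4586 in SoNar-high and 5963 in SoNar-low cells. Bag1, which releases nucleotide from HSP70, was at -0.52, and its 2 probes differed by 0.15. Dnaja1, a farnesylated HSP40, had 8144 in SoNar-high and 9915 in SoNar-low cells from its bright probe, at -0.43. The probes of the remaining 2 disagreed. Dnaja2 gave 0.13 from a probe with 9249 in SoNar-high and 7655 in SoNar-low cells, but -0.59 from a dimmer probe, and Dnajb6 ranged from -0.55 to 0.40 over 4 probes. The class median of -0.47 was below that of all genes in all 11 other processing settings. Against genes of like level, 4 of these 6 genes were below and Dnaja2 and Dnajb6 above.

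Of the cytosolic HSP90 pair, Hsp90ab1, the constitutive form, was at 0.01, with 74565 in SoNar-high and 66986 in SoNar-low cells. Hsp90aa1, the inducible form, was at -0.26, with 37504 in SoNar-high and 40704 in SoNar-low cells. These 2 values are 0.27 apart, which is less than the usual SD between probes of a gene.

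Among HSP90 partners the widest contrast of the whole set was found. Stip1 (HOP), the adaptor that joins HSP70 to HSP90, had 3925 in SoNar-high and 1645 in SoNar-low cells. Its difference of 1.11 is 2.16-fold, and higher than 96.0% of all measured genes, but it rests on 1 probe. It stayed above the median of all genes by 0.96 to 1.52 in the 11 other processing settings and past 2-fold in 10 of them. With 1 probe, bright on both arrays, the 3 filters, the brightest probe and keeping outlier spots could not change its own difference of 1.11. With median scaling its difference was 0.50. Cdc37, the adaptor that brings kinases to HSP90, went the other way, at -0.72, with 18437 in SoNar-high and 27441 in SoNar-low cells. Ahsa1, which stimulates the ATPase of HSP90, was at -0.08 and Fkbp4, a prolyl isomerase of steroid receptor complexes, at -0.07. Ptges3 (p23) was at -0.20 as a mean of 4 probes that ran from -0.37 to 0.21. Thus 1 adaptor was 2-fold higher, 1 was lower by less than 2-fold, and 3 were closer to all genes than the usual spread between probes.

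Hspb1, a small heat shock protein that binds unfolded proteins without ATP, was detected in SoNar-high cells alone. Its probe read 172 in SoNar-high cells, and 36.5 in SoNar-low cells, where it was not well above background. Set against the lowest detected level of the SoNar-low array, Hspb1 was at least 3.35-fold higher in SoNar-high cells, or at least 2.19-fold with median scaling. That level, a signal of 46.4, is not a strict limit for this or the other bounds. Some SoNar-low probes not well above background read higher, such as that of Hspa12b at 56.1. Detection in SoNar-high cells alone was common, covering 26.5% of all named genes, since 72.9% of spots were well above background on that array and 44.8% on the SoNar-low array. A bound of at least 2-fold was reached by 1.78% of named genes. Hspb1 was also the member detected on the SoNar-high array alone with detection raised to 2 times the lowest detected signal of each array and with 1 limit common to both arrays. Its own outcome there follows from the signals given above.

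**Figure D3:**
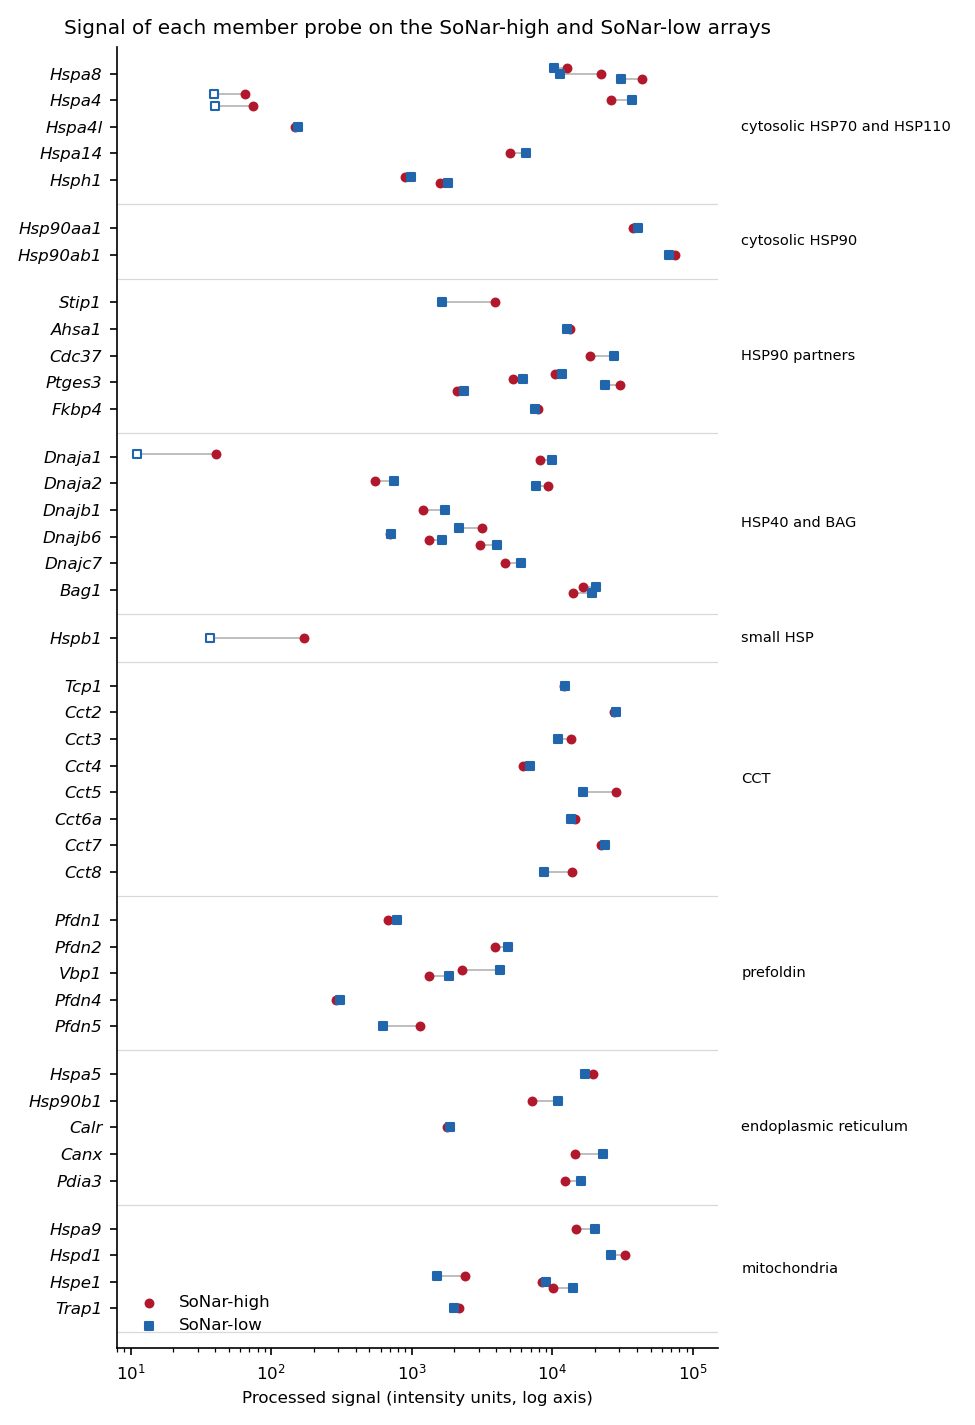
Processed signal (intensity units, log axis) of each of the 58 member probes in SoNar-high (red circles) and SoNar-low cells (blue squares), by class; open symbols were not well above background. Most pairs nearly touch, while Stip1, Hspb1 and Pfdn5 show SoNar-high to the right and Canx, Hsp90b1 and Vbp1 show it to the left.

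The CCT ring, built of 8 related subunits that fold actin and tubulin, had a median of -0.12 and was split evenly, with 4 subunits above and 4 below the median of all genes in the main setting. Cct5 was the highest, with 28208 in SoNar-high and 16351 in SoNar-low cells and a difference of 0.64. Cct8 followed at 0.52, with 13752 in SoNar-high and 8685 in SoNar-low cells, and Cct3 at 0.16, with 13575 in SoNar-high and 11019 in SoNar-low cells. These 3 stayed above the median of all genes in all 11 other processing settings. The other 5 lay between -0.29 and -0.06, a range narrower than the usual SD between probes of a gene: Cct6a at -0.06, Tcp1 and Cct2 at -0.18 each, Cct7 at -0.25 and Cct4 at -0.29. The 8 subunits spanned 0.94 on the log2 scale, each measured by 1 probe. Their SD of 0.36 was near the usual SD of 0.32 between probes of 1 gene. Uneven transcripts and uneven probes thus cannot be told apart here. All 8 were among the brightest 25% of genes, and all 8 lay above the median of those genes, by 0.05 to 0.99.

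Prefoldin, the carrier that delivers clients to CCT, was the class with the most uneven members after the HSP90 partners. Pfdn5, also known as a binder of MYC, had 1144 in SoNar-high and 625 in SoNar-low cells, at 0.73. Vbp1 (prefoldin 3), which binds the von Hippel-Lindau protein, had 2285 and 1322 from its 2 probes in SoNar-high cells, against 4226 and 1851 in SoNar-low cells. Both Vbp1 probes were lower in SoNar-high cells, at -1.03 and -0.63, and the gene's mean of -0.83 was the lowest of all members. Pfdn2 was at -0.44, Pfdn1 at -0.37 and Pfdn4 at -0.25. The class median of -0.37 was below that of all genes in all 11 other processing settings, with Pfdn5 as the exception among its 5 genes and Pfdn1 moving above it in 1 setting.

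In the main setting the endoplasmic reticulum class had the lowest median, -0.51, next to -0.47 for the HSP40 and BAG class. These medians lie closer together than the scanner software's error for 1 probe. The endoplasmic reticulum class was also lowest in 10 of the 11 other settings. Among these, median scaling, the percentile of probes detected on both, the stricter filter and keeping outlier spots left the members unchanged relative to each other. They could not alter the order of classes. With cyclic loess the HSP70 and HSP110 class was lower, as it was against genes of like level. In the main setting 4 of the 5 endoplasmic reticulum genes were below the median of all genes. Canx (calnexin), the membrane lectin chaperone of new glycoproteins, had 14528 in SoNar-high and 22967 in SoNar-low cells, a difference of -0.81 or 1.75-fold lower. Hsp90b1 (GRP94), the HSP90 of this compartment, had 7157 in SoNar-high and 11007 in SoNar-low cells, at -0.77. Pdia3, the disulfide isomerase that works with calnexin, was at -0.51, with 12309 in SoNar-high and 15850 in SoNar-low cells. Calr (calreticulin), the soluble counterpart of calnexin, had 1779 in SoNar-high and 1864 in SoNar-low cells, and its -0.21 was 0.05 below the median of all genes. Hspa5 (BiP), the HSP70 of this compartment and a standard marker of the unfolded protein response, was at 0.04, with 19299 in SoNar-high and 16991 in SoNar-low cells. The 4 genes that carry the ER stress element thus ran from -0.81 for Canx to 0.04 for Hspa5. Canx, Hsp90b1 and Pdia3 stayed below the median of all genes in all 11 other processing settings, whereas Calr changed side in 6 and Hspa5 in 1. Against genes of like level the class median was -0.165, next to -0.170 for the HSP70 and HSP110 class, with Canx at -0.46 and Hsp90b1 at -0.42, and Hspa5 at 0.38.

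In mitochondria Hspa9 (mortalin), the HSP70 that pulls in imported proteins, stood apart from the folding chamber. It had 14610 in SoNar-high and 20145 in SoNar-low cells, at -0.61, and was below the median of all genes in all 11 other processing settings. Hspd1 (HSP60), the chamber itself, was at 0.17, with 32611 in SoNar-high and 26146 in SoNar-low cells. Hspe1 (HSP10), its lid, gave differences of 0.53, -0.22 and -0.61 from 3 probes, so its mean of -0.10 with an SD of 0.58 shows no direction even though it shares its promoter with Hspd1. Trap1, the mitochondrial HSP90, was at -0.01, with 2179 in SoNar-high and 1988 in SoNar-low cells. The HSP70 of all 3 compartments can be set side by side as differences: 0.44 for Hspa8 in the cytosol, 0.04 for Hspa5 in the endoplasmic reticulum and -0.61 for Hspa9 in mitochondria. The HSP90 forms gave 0.01 and -0.26 in the cytosol, -0.77 for Hsp90b1 and -0.01 for Trap1.

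**Figure D4:**
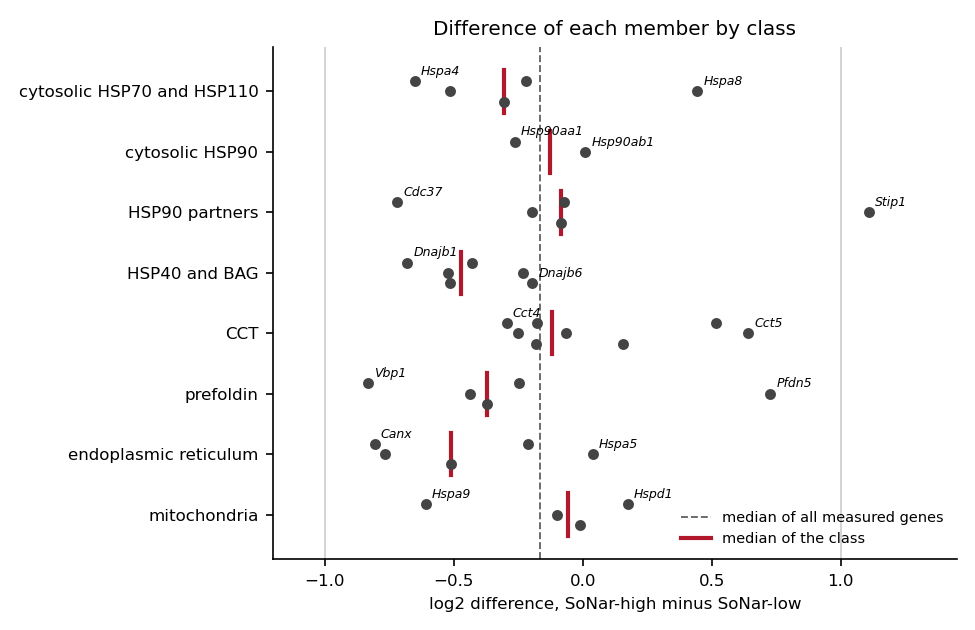
Difference on the log2 scale, SoNar-high minus SoNar-low, for 40 measured members by class, with the class median (red bar) and the median of all measured genes (dashed line, -0.17); grey lines mark 2-fold. Endoplasmic reticulum genes have the lowest median in this setting, -0.51 (not with cyclic loess), and Stip1 at 1.11 is the point beyond 2-fold.

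Promoter content and difference can be compared within the set. The 10 measured members with the short heat shock element had a median difference of -0.14 (range -0.72 to 0.64), and the 24 without it had a median of -0.24 (range -0.83 to 1.11). The ranges overlap almost fully. Stip1, with the highest difference, and Vbp1, with the lowest, held neither searched element in this window. The 4 members with the ER stress element had a median of -0.49, and the 30 measured members without it one of -0.21.

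Beyond the members, 101 other folding genes were listed by role, of which 82 were measured on both arrays, 14 were detected in SoNar-high cells alone, 3 in neither population, and 2 had no matched probe. Among all named genes 26.5% were detected in SoNar-high cells alone. Their median difference was -0.22, with 35 above and 47 below the median of all genes. At least 2-fold higher were 2, Clpp and Txndc9, and 0 were 2-fold lower, against 4.87% and 1.68% of all measured genes. These counts hold for the main setting and were not repeated with median scaling. That scaling lowers every difference alike, taking the median of all genes from -0.17 to -0.78. Clpp, the mitochondrial matrix protease, had 1423 in SoNar-high and 480 in SoNar-low cells, at 1.42 from 1 probe. Txndc9, which binds CCT, averaged 1.18, but its 3 probes gave 3.55, 0.34 and -0.35. The next highest were Bag6, which guards membrane proteins in the cytosol, at 0.68, and Dnajb14 at 0.65. The lowest were Uri1, a prefoldin-like protein, at -0.94, and Dnajb9, an HSP40 of the endoplasmic reticulum, at -0.86. Other endoplasmic reticulum folding genes had a median of -0.23 over 14 measured genes, with 10 below the median of all genes. Those measured on both arrays ran from -0.85 for Herpud1, a target of the unfolded protein response, to 0.28 for Ero1a, which oxidises disulfide isomerases. Sdf2l1 at 0.13, Ero1b at 0.08 and Manf at -0.05 were also above the median of all genes. Pdia5, of the same list, was detected in SoNar-high cells alone, with 112 there and 38.4 in SoNar-low cells. Other HSP90 partners had a median of -0.48, with 8 of 10 below the median of all genes. Other HSP40 genes had one of -0.34, with 11 of 18 below. The lists of other folding genes were not set against genes of like level. For all measured genes the median was -0.34 in the highest 25% of levels. On the other side, mitochondrial quality control genes had a median of -0.01, with 6 of 7 above, prolyl isomerases one of -0.08, with 4 of 6 above, and HSP70 exchange factors one of -0.15, with 5 of 9 above. The stress regulators gave no 2-fold difference in 9 measured genes: Hsf1, the heat shock factor, was at -0.20, Hsbp1 at -0.25, Hsf2 at -0.70, Xbp1 at -0.55 and Eif2ak3 at -0.60, while Ern1, a sensor of unfolded protein, was at 0.63, Ddit3 at 0.19 and Atf6 at -0.16, above the median of all genes. Atf4 averaged -0.30 over 2 probes that disagreed, at 0.35 and -0.94. The inducible HSP70 gene Hspa1a was dim, with 38.3 in SoNar-high and 35.0 in SoNar-low cells, and not well above background in SoNar-low cells. Cryab, another small heat shock protein gene, read 220 in SoNar-high and 29.2 in SoNar-low cells with its brightest probe and, like Hspb1, has only a bound, at least 4.29-fold higher, or at least 2.80-fold with median scaling. Of the 14 genes detected in SoNar-high cells alone, Cryaa and Pdia5 also had bounds past 2-fold, and the rest did not. The bound of Pdia5 was at least 2.19-fold, or 1.43-fold with median scaling. For Cryaa the value was 2.66-fold, or 1.74-fold with median scaling. It is no true bound, since it uses the probe's own SoNar-low reading of 53.9, above the lowest detected signal of 46.4. A second Cryaa probe read 26.1 in SoNar-high and 40.8 in SoNar-low cells, not well above background in either. Among all named genes 1.78% had a bound of at least 2-fold.

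Markers of several cell types were examined, but whether their signal came from such cells or from the leukaemic cells was not tested. Their summed signals, which are unscaled, are led by the brightest gene of a list, so medians of the scaled differences stand beside them. Of 11 B lineage markers 9 were measured on both arrays, with a median of -0.36 and summed signals of 47358 in SoNar-high and 52822 in SoNar-low cells, and Igll1 and Rag1 were not well above background in either. All 10 neutrophil markers were measured, with a median of 0.59, 9 of 10 above the median of all genes, and sums of 25423 in SoNar-high and 18464 in SoNar-low cells. Plasma cell markers, relevant to the endoplasmic reticulum genes, had a median of 0.28 over 5 of 7, with 4 of 5 above the median of all genes and Prdm1 at 1.48. Their sums of 3607 in SoNar-high and 3472 in SoNar-low cells are mostly Mzb1, at -0.26, and Tnfrsf17 was not well above background in either. Erythroid markers had a median of 0.88 over 4 of 9, with 3 of 4 above, while their sums of 21213 in SoNar-high and 27837 in SoNar-low cells are led by Hemgn, at -0.83. Of T cell markers 2 of 5 were measured, Cd3e at 1.26 and Lck at -0.94, with sums of 1196 in SoNar-high and 1628 in SoNar-low cells. Natural killer cell markers had a median of 1.17 over 2 of 4, both above, with sums of 394 in SoNar-high and 172 in SoNar-low cells. Both were dim: Prf1 read 77.6 and Gzma 62.3 in SoNar-low cells, where the lowest detected signal was 46.4. Stromal and endothelial markers had a median of 0.50 over 4 of 6, with 3 of 4 above, while their sums of 9073 in SoNar-high and 13181 in SoNar-low cells are led by Alpl, at -0.83. In such bulk samples fewer cells of a type and less RNA per cell cannot be told apart, and the part of any other cells in the chaperone differences was not tested.

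The members fall into those whose side holds across the processing settings and those whose side does not. Relative to the median of all genes in the same setting, 19 of 40 members kept their side in all 9 other processing settings that can change it, and 21 changed it in at least 1. Those that kept it include Stip1, Pfdn5, Cct5, Cct8, Cct3, Hspa8 and Hspd1 on the higher side and Vbp1, Canx, Hsp90b1, Cdc37, Dnajb1, Hspa9, Pdia3, Bag1, Dnajc7 and Hspa14 on the lower side. Among those that changed it were both cytosolic HSP90 genes, Hspe1, Calr, Hspa5 and 5 CCT subunits, which lie near the median of all genes, and Hspa4 and Dnaja1, whose dim probes enter under looser filters.

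**Figure D5:**
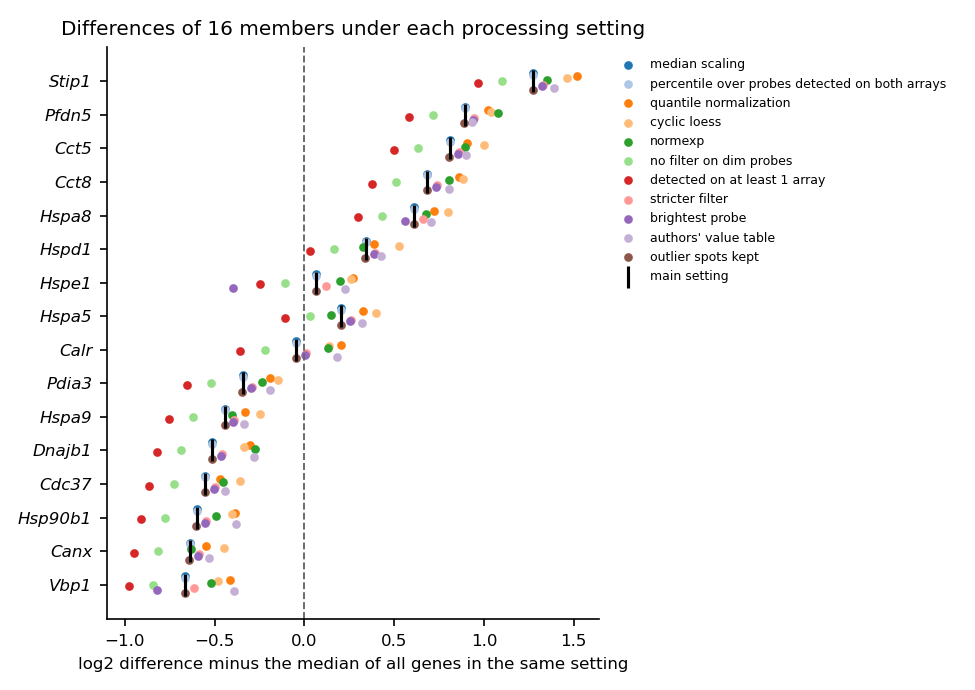
Log2 difference minus the median of all genes in the same processing setting, for 16 members; black ticks are the main setting and coloured points the 11 other processing settings. Stip1 stays right of 0.96 and Vbp1 and Canx stay left of -0.39, while the points of Hspe1, Hspa5 and Calr lie on both sides of 0.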

How the data were processed

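Total RNA of the 2 sorted populations was hybridised to 1 Agilent 1-colour (Cy3) array each; groups come from the source names. The deposited scanner files hold linear intensity values, background-subtracted and detrended by Agilent Feature Extraction 11.0.1.1 per the file headers (the submitters' processing notes name 9.1), with 0 or 1 flags per spot. The deposited value table holds the authors' log2 values, with a median of 5.90 in both columns; its further steps are not stated in the labels or files, and it served only as an alternative. The header's array annotation is mm9; promoter coordinates are GRCm38.p6.

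Control spots and 685 outlier spots were left out, spots averaged per probe, and each gene took the average of its probes that were well above background on both arrays (39085 probes, 27115 named by RefSeq accession). No p-value was computed. All members, and for the other folding genes the 2-fold genes and the 2 highest and lowest, were named by rule. Bag6, Dnajb14, the regulators, the endoplasmic reticulum genes, Hspa1a, Cryaa and Cryab were singled out after their values were seen. Members, lists and motifs were chosen with earlier results of these data known. Alternatives were median scaling, a 75th percentile taken over probes detected on both, quantile normalization, cyclic loess, normexp (offset 50, on the median spot signal, then quantile normalization), 3 filters, the brightest probe, the authors' table and outlier spots kept; centring on genes of like level was added after seeing the data. Probe averaging, the main scaling and the gene differences were tested on simulated spots with known differences, and the motif search on short made-up sequences. The other settings, bounds, class medians and marker sums were not tested in that way. Protein ends were not analysed here. Python 3.11.15, pandas 2.3.3, R 4.3.3 and limma 3.58.1 were used.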

Additional observations from a re-analysis of the deposited data

Results flagged for a closer look

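Of the members measured on both arrays, 3 probes were left out of the values because they were not well above background in SoNar-low cells, yet they read above the negative control spots in SoNar-high cells, where all but 2.5% of 153 such spots were at or under 5.50. A second Dnaja1 probe read 40.6 in SoNar-high and 11.1 in SoNar-low cells. Of Hspa4, 1 dim probe read 65.0 in SoNar-high and 39.5 in SoNar-low cells, and another 73.8 in SoNar-high and 39.9 in SoNar-low cells. All 3 run opposite to the bright probe of the same gene, which was lower in SoNar-high cells. On the SoNar-low array both Hspa4 probes were above the corresponding limit of 13.3 and the Dnaja1 probe was not.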

How the results depend on the processing

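No paired analysis was possible because a group held a single array, and leaving out an array was not possible either. The members' median minus that of all genes was -0.06. It was 0.0626 with quantile normalization, 0.10 with cyclic loess, 0.0158 with normexp, 0.0724 in the authors' table, 0.0718 centred on genes of like level (added after seeing the data), -0.00657 with the stricter filter, -0.21 unfiltered and -0.34 for probes detected on either array. The 1 member 2-fold higher became 0 with median scaling and 2 under both looser filters, which admit Hspb1. The 0 lower members became 13 with median scaling, where 31.4% of all genes were lower, and 1 (Vbp1) with the brightest probe. Median scaling shifts all differences, taking the median of all genes to -0.78, and scaling to the 75th percentile of probes detected on both takes it to 0.05. With the stricter filter the members' own median stayed at -0.23 while that of all genes was -0.22. Unfiltered and for probes detected on either array the members' own median was -0.20, while that of all genes was 0.01 and 0.14. For the other settings the cause was not tested. Hspb1 kept its detection in SoNar-high cells alone in all 3 alternatives. No member spot was an outlier, and its signals of 172 in SoNar-high and 36.5 in SoNar-low cells fix the outcome under the other limits. The 31.4% of members with a heat shock element became 11.4% for the longer forms. Class medians relative to all genes ranged from -0.65 to -0.15 for the endoplasmic reticulum, below 0 in all 11, and from -0.26 to 0.24 for CCT, above 0 in 9. Dim signal limits Hspb1 and the left-out probes.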
